A study of Rattus norvegicus with 16 samples.

Results

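The genes described here encode the enzymes of oxidative phosphorylation, grouped by the 5 complexes of the inner mitochondrial membrane. They were the chip features with exactly 1 gene symbol beginning with Nduf, Cox followed by a digit of 4 to 8, Uqcr, Atp5, or Sdh followed by a, b, c or d. That rule gave 77 features and 57 symbols of the 12559 genes and unnamed probes tested, and features of 1 symbol were averaged on each array. Complex I had 23 symbols, complex II 5, complex III 4, complex IV 11 and complex V 14. The label fits 51 of the 57, which are structural subunits. The other 6 are the assembly factors Ndufaf1, Ndufaf3, Ndufaf4 and Sdhaf2, the pseudogene Ndufs5-ps, and Cox7a2l, which acts in the joining of complexes III and IV into supercomplexes. The rule used no measured value.

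Expression was read on 16 two-colour arrays of mouse cDNA hybridised with RNA of rat neural stem and progenitor cells. The source was embryonic neocortex (day 14.5) of the Sprague-Dawley strain, and the cultures were monolayers in N2 medium containing 10 ng/ml of fibroblast growth factor 2 (FGF-2), a mitogen for these cells. The 4 groups were cells that received daily 10 ng/ml of PDGF-AA, a dimer of the platelet-derived growth factor A chain, for 6 d, cells without added factor for 6 d, cells given PDGF-AA for 12 h and cells without added factor for 12 h. The labels do not say whether the PDGF-AA cultures also received FGF-2. Each group had 4 arrays, with the sample in Cy5 on 2 of them and in Cy3 on the other 2, and every array carried RNA of FGF-2-treated cells in the second channel. Values below are log2 ratios of sample over FGF-2. The log base, taken as 2, and the direction are not stated in the sources used here, and all folds and signs rest on them. At least 2 RNA preparations stood behind each group, but which arrays share one is not stated, so p-values speak to the scatter of hybridisations and some of that scatter may be technical.

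Complexes I to IV form the respiratory chain. Complex I takes electrons from NADH and complex II, which is also the succinate dehydrogenase of the citric acid cycle, takes them from succinate. Both hand them to ubiquinone, complex III passes them to cytochrome c, and complex IV passes them to oxygen. Complexes I, III and IV pump protons, and complex V, the ATP synthase, lets the protons return through its membrane part Fo and makes ATP in its head F1. Most subunits are encoded in the nucleus, as are all subunits named here, while a small core of complexes I, III, IV and V is encoded in mitochondrial DNA. None of those 13 mitochondrial genes was among the named features (0 of 13). Cycling neural progenitors are known to rely largely on glycolysis, and their differentiation into neurons is known to go with more oxidative phosphorylation.

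At the level of whole complexes the message amounts stayed near those of FGF-2 cells in all 4 groups. The member that passed the test in most groups was Sdhd, a membrane anchor subunit of complex II. Its ratio was -0.50 ± 0.11 (SE, n = 4) at 6 d without factor, -0.55 ± 0.11 at 12 h with PDGF-AA and -0.53 ± 0.11 at 12 h without factor, and all 3 passed the test. These are falls of 1.41, 1.47 and 1.45-fold. In 6 d PDGF-AA cells the same gene stood at -0.14 ± 0.11, with a 95% interval of -0.39 to 0.10, and did not pass. Ndufs1 and Ndufs8, iron-sulphur subunits of complex I, fell at 6 d without factor, and Cox6b2, a testis isoform of a complex IV subunit, fell at 12 h with PDGF-AA. No member rose past the threshold in any group.

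The promoters of the 4 genes that passed are shown, whether or not they held a motif. No member rose past the threshold in any group, so the shared direction of these genes does not set them apart. Each window runs from 250 bases before to 50 after the start of the rat gene in RefSeq, build GRCr8, and is written 5′ to 3′ on the gene's strand. Sdhd lies at chr8:59850592-59850891 on the minus strand, Ndufs1 at chr9:72073556-72073855 on the minus strand, Ndufs8 at chr1:210573649-210573948 on the minus strand and Cox6b2 at chr1:78122621-78122920 on the plus strand. Capitals mark matches to CCGGAAG, the core bound by ETS factors such as GABP, here always read on the opposite strand as CTTCCGG.
Sdhd: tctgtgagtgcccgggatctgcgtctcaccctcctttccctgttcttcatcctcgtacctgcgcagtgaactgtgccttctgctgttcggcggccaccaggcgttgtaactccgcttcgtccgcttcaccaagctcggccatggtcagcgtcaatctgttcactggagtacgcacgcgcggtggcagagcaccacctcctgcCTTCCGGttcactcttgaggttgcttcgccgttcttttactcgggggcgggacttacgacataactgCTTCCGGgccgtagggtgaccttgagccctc
Ndufs1: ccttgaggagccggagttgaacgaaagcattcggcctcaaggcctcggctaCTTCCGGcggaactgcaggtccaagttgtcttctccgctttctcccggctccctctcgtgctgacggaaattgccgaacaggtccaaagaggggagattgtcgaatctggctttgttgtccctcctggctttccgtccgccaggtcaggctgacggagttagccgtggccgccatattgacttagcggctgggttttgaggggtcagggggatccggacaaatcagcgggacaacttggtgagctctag
Ndufs8: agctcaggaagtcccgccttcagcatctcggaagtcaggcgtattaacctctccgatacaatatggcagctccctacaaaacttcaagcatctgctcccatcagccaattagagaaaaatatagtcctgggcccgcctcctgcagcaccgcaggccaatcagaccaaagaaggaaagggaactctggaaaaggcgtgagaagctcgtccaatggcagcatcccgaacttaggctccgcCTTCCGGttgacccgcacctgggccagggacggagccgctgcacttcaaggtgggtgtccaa
Cox6b2: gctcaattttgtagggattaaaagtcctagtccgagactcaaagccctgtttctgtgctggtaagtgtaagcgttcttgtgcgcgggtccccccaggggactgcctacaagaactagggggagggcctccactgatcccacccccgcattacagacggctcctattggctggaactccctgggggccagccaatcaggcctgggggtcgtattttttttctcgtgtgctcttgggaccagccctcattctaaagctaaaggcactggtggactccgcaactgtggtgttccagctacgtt
Sdhd held 2 matches, Ndufs1 and Ndufs8 held 1 each, and Cox6b2 held none. Both strands were searched for 3 motifs, which do not overlap in these windows. Of 57 members 50 could be matched to a rat promoter by symbol or synonym, and 7 could not. CCGGAAG was present in 17 of the 50 (34%) and in 2927 of 33469 rat promoters of that length (8.75%). The NRF1 motif, GCGC and TGCGC with any base between them, was present in 10 members (20%) and in 1424 of all promoters (4.25%). AAGATGGCG, the motif of YY1, was present in 6 members (12%) and in 580 of all promoters (1.73%). Members were matched to protein-coding genes only, while all promoters were counted without that limit, so these shares do not compare like sets. Median ratios of members with and without CCGGAAG lay close together. At 6 d without factor the median ratio was -0.06 for the 17 members with CCGGAAG, which ranged from -0.50 to 0.14, and -0.04 for the 33 without it, which ranged from -0.32 to 0.31. At 12 h without factor those medians were 0.03 and 0.00. For the NRF1 motif the medians with and without it were -0.09 and -0.04 at 6 d without factor, and -0.09 and 0.03 at 12 h without factor. For the YY1 motif, held by only 6 members, they were -0.12 and -0.03, and -0.07 and 0.02, in those groups. None of these differences was tested. A match describes these letters only.

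The deposited medians of the 16 arrays lay between -0.0053 and 0.0387. A dye effect past the threshold was found for 27 of the 57 members, and its median size was 0.258 for members and 0.243 for all units. Per-array values below therefore have the fitted dye effect removed. The median spread of a member between arrays of a group, pooled over groups, was 0.174, against 0.235 for all units. Among markers of cell types, the mean of 4 measured astrocyte genes of 8 listed lay between 0.08 and 1.51 over the PDGF-AA 6 d arrays, 0.89 and 2.01 over the no factor 6 d arrays, -0.04 and 0.41 over the PDGF-AA 12 h arrays and 0.22 and 0.79 over the no factor 12 h arrays. Of those 4, 2 were called higher at 6 d with PDGF-AA, 3 higher at 6 d without factor, 0 at 12 h with PDGF-AA, and 1 higher and 1 lower at 12 h without factor. The mean of 3 measured progenitor genes of 11 listed was below 0 on every array, between -0.53 and -0.14, but single genes ran from -0.89 to 0.27, and 1 was called lower in each group except PDGF-AA 12 h, where 0 were. Of 4 measured mesenchymal genes of 6 listed, 2 were called higher at 6 d with PDGF-AA, 3 at 6 d without factor, 0 at 12 h with PDGF-AA and 1 at 12 h without factor. Their array means lay between 0.31 and 0.78, 0.75 and 0.99, 0 and 0.41, and 0.17 and 0.32 in those groups. Of 4 measured neuronal genes of 10 listed, 0 were called at 6 d with PDGF-AA, 2 were higher at 6 d without factor, 1 was higher at 12 h with PDGF-AA, and 2 were higher and 1 lower at 12 h without factor. The neuronal array means lay between -0.08 and 0.30, 0.24 and 0.56, 0.17 and 0.31, and 0.01 and 0.37. The 1 measured oligodendrocyte lineage gene of 8 listed was at 0.90, 1.51, 0.44 and 0.97 and was called at 6 d without factor. Of 2 measured microglial and 2 endothelial genes, 0 passed in any comparison by limma. Among all units 3.22% were called at 6 d with PDGF-AA and 13.7% at 6 d without factor. The shares at 12 h were 3.01% with PDGF-AA and 11.7% without factor. Ratios give no level, so whether the markers of a cell type were present could not be read from them. The part of these shifts in the members' values was not tested, and fewer cells of a type and less RNA per cell cannot be told apart in such bulk RNA.

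Counts of members past the threshold were small in every group. A call is a Benjamini-Hochberg adjusted p under 0.05 from limma over all 12559 units. At 6 d with PDGF-AA 0 of 57 members were called, where 3.22% of all units were. At 6 d without factor 3 of 57 were called (5.26%), all lower, where 13.7% of all units were called and 6.73% were lower. At 12 h with PDGF-AA 2 of 57 were called (3.51%), both lower, where 3.01% of all units were called and 2.35% were lower. At 12 h without factor 1 of 57 was called (1.75%), also lower, where 11.7% of all units were called and 6.48% were lower. An unadjusted p under 0.05 was reached by 4 members at 6 d with PDGF-AA (7.02%, against 15.5% of all units) and 10 at 6 d without factor (17.5%, against 23.1%). At 12 h it was reached by 7 with PDGF-AA (12.3%, against 13.2%) and 7 without factor (12.3%, against 22.8%). By unadjusted p the members' shares were thus below those of all units in these 4 groups. By calls they were below as well, except at 12 h with PDGF-AA (3.51%, against 3.01%). The 4 comparisons share the FGF-2 channel, so the values are given side by side and no overlap is drawn from them.

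The members' ratios spanned a narrow range around 0. Their median ratio was -0.002 at 6 d with PDGF-AA, -0.033 at 6 d without factor, -0.029 at 12 h with PDGF-AA and 0.015 at 12 h without factor. For all units the medians were 0.004, 0.004, 0 and -0.001 in the same groups. The quartiles of the members were -0.08 and 0.07 in the PDGF-AA 6 d group. The 95% interval lay wholly within 0.5 log2 units of 0 for 54, 51, 52 and 53 of the 57 members in these groups, which is 94.7%, 89.5%, 91.2% and 93% of them. Among all units those shares were 76.8%, 72.2%, 79.6% and 70.4%. Precision enters this contrast, since the median SE in each group was 0.1 for members and 0.121 for all units. An interval within 1 unit of 0 was reached by 57, 57, 56 and 57 members, the exception being Cox6b2 at 12 h with PDGF-AA.

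**Figure D1:**
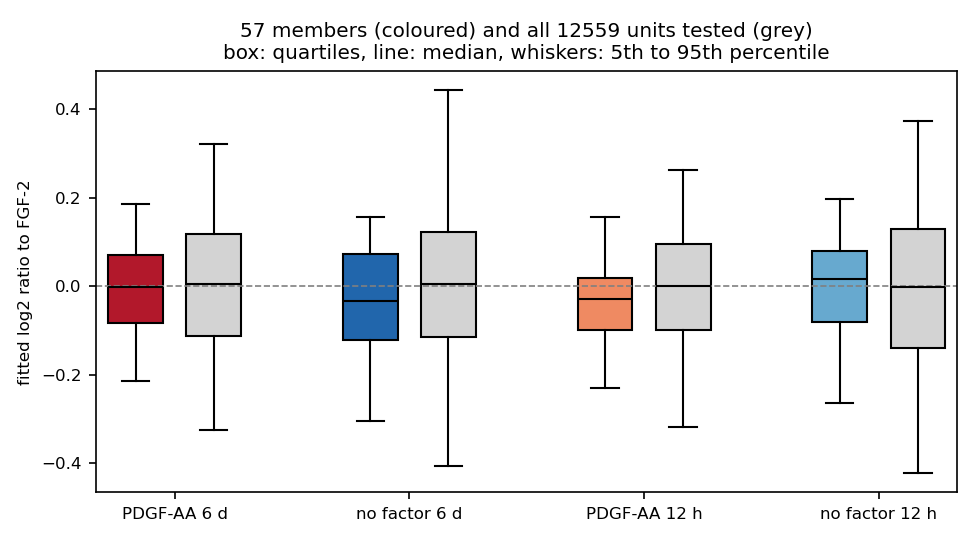
Fitted log2 ratios to FGF-2 (vertical axis) of the 57 members (coloured boxes) and of all 12559 units tested (grey boxes) in the 4 groups; boxes show quartiles, lines the median and whiskers the 5th to 95th percentile. The members' boxes sit at 0 and their whiskers are shorter than those of all units in each group.

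Without regard to the test, 10 members had all 4 arrays on the same side of 0 at 6 d with PDGF-AA (17.5%, against 20.5% of all units). There were 20 such members at 6 d without factor (35.1%, against 30.6%). Of the 57 members 13 lay below 0 on all 4 arrays there, a larger share than the 14.4% of all units that did. At 12 h the members with all 4 arrays on the same side numbered 15 with PDGF-AA (26.3%, against 20.8%) and 17 without factor (29.8%, against 35.8%). The map of all members shows Sdhd as a dark row over 3 groups and few other rows of 1 colour.

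**Figure D2:**
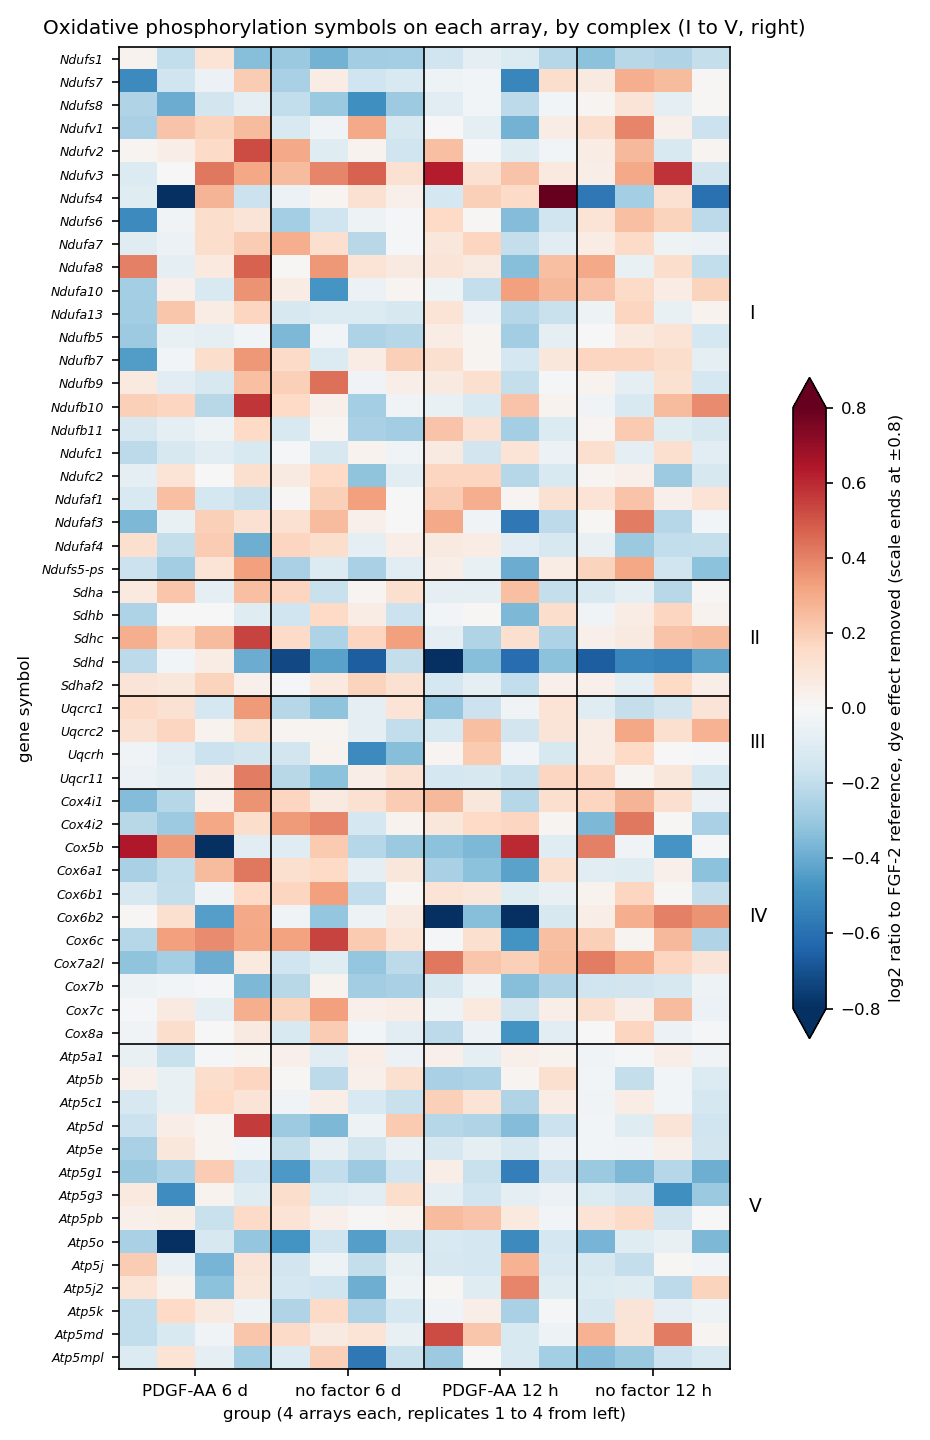
Log2 ratio to FGF-2, dye effect removed, of each member (rows, by complex I to V) on each of the 16 arrays (columns, 4 per group, replicates 1 to 4 from the left); red is above and blue below 0, and the colour scale ends at 0.8 on either side. Sdhd is blue on 12 of 12 arrays outside the PDGF-AA 6 d group, and Cox6b2 holds the lowest single value, -1.97.

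Complex I, the NADH dehydrogenase, averaged -0.01 ± 0.13 (SD, n = 4 arrays) at 6 d with PDGF-AA and -0.03 ± 0.03 at 6 d without factor. At 12 h the means were 0.00 ± 0.11 with PDGF-AA and 0.02 ± 0.08 without factor. Within groups the single arrays of the PDGF-AA 6 d group ran from -0.14 to 0.14, on both sides of 0. Of its 23 symbols, 2 fell at 6 d without factor and 0 were called in the other 3 groups, where 1, 1 and 1 had an unadjusted p under 0.05.

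Ndufs1 encodes the largest core subunit of the arm that oxidises NADH and carries iron-sulphur clusters. Its ratios were 0.03, -0.20, 0.11 and -0.34 on the PDGF-AA 6 d arrays, -0.30, -0.38, -0.28 and -0.27 on the no factor 6 d arrays, -0.16, -0.08, -0.11 and -0.23 on the PDGF-AA 12 h arrays, and -0.33, -0.22, -0.24 and -0.19 on the no factor 12 h arrays. With the dye effect removed, the no factor arrays were all below 0 and close together at both times. The PDGF-AA 6 d arrays lay on both sides of 0 and ran from 0.11 down into the range of the others. Before that removal the no factor arrays ran from -0.60 to -0.06 for 6 d and from -0.54 to -0.01 for 12 h. Ndufs1 had a dye effect of 0.42 (limma adjusted p = 0.00105). It fell by 0.31 ± 0.08 at 6 d without factor (SE, limma adjusted p = 0.0195), a 1.24-fold decrease. At 12 h without factor the ratio was -0.25 ± 0.08 and missed the threshold (adjusted p = 0.0674). At 6 d the difference of PDGF-AA minus no factor was 0.21 ± 0.12, with an interval of -0.04 to 0.46. The 6 d call was lost on leaving out any of the 4 arrays of its group (adjusted p from 0.0516 to 0.0898), with ratios from -0.32 to -0.28.

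Ndufs8 encodes a core subunit near the ubiquinone site that also carries iron-sulphur clusters. Its ratios were -0.24, -0.40, -0.15 and -0.07 on the PDGF-AA 6 d arrays, -0.20, -0.30, -0.49 and -0.29 on the no factor 6 d arrays, -0.09, -0.02, -0.21 and -0.02 on the PDGF-AA 12 h arrays, and 0.02, 0.10, -0.07 and 0.01 on the no factor 12 h arrays. All 8 arrays of 6 d were below 0, and without factor the 6 d and 12 h arrays did not overlap. It fell by 0.32 ± 0.08 at 6 d without factor (adjusted p = 0.0127), a 1.25-fold decrease, and stood at -0.21 ± 0.08 at 6 d with PDGF-AA (adjusted p = 0.197). The difference of 6 d minus 12 h without factor was -0.34 ± 0.12 and did not pass (adjusted p = 0.188). The call at 6 d was lost without replicate 3 of the group, at -0.26 and an adjusted p of 0.115.

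The other 3 core symbols of complex I were not called. The 5 core symbols measured, Ndufs1, Ndufs7, Ndufs8, Ndufv1 and Ndufv2, averaged -0.03, -0.14, -0.08 and 0.02 in the PDGF-AA 6 d, no factor 6 d, PDGF-AA 12 h and no factor 12 h groups, and the 14 accessory symbols averaged 0, 0, 0.03 and 0.02. Ndufv3, an accessory subunit of the NADH-oxidising arm, was the highest member of the complex in both no factor groups, at 0.31 ± 0.13 for 6 d and 0.19 ± 0.13 for 12 h. Its 6 d no factor arrays were at 0.25, 0.39, 0.47 and 0.12, all above 0, but the adjusted p was 0.138. Ndufa8, on the intermembrane side, was the highest at 6 d with PDGF-AA, at 0.22 ± 0.12 (adjusted p = 0.39). Ndufs4, which helps to join the NADH-oxidising arm to the rest, was the lowest at 6 d with PDGF-AA (-0.31 ± 0.20) and at 12 h without factor (-0.33 ± 0.20), and the highest at 12 h with PDGF-AA (0.31 ± 0.20). Both PDGF-AA values lean on single arrays: replicate 2 of PDGF-AA 6 d was at -1.22 and replicate 4 of PDGF-AA 12 h at 1.03, against -0.10, 0.27 and -0.17 and against -0.14, 0.19 and 0.15 for their companions. The no factor 12 h arrays were at -0.57, -0.27, 0.12 and -0.60, so 3 of 4 lay below 0. None of these 3 genes was called.

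The symbols of complex I that are not subunits stayed near 0. Ndufaf1, Ndufaf3 and Ndufaf4, which help to assemble the complex, averaged -0.05 as a set at 6 d with PDGF-AA, 0.10 at 6 d without factor, 0.00 at 12 h with PDGF-AA and -0.01 at 12 h without factor. The lowest single ratio among them was -0.19 ± 0.10 for Ndufaf4 at 12 h without factor (adjusted p = 0.272), and the highest 0.16 ± 0.09 for Ndufaf1 at 12 h with PDGF-AA (adjusted p = 0.529). The feature named for the pseudogene Ndufs5-ps ranged over groups from -0.18 to 0.00.

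Complex II held the member called in most groups, Sdhd. Together with Sdhc this subunit anchors the enzyme in the membrane and forms part of the ubiquinone site, while Sdha carries the flavin and Sdhb the iron-sulphur clusters. The Sdhd ratios were -0.21, -0.02, 0.06 and -0.40 on the PDGF-AA 6 d arrays, -0.72, -0.43, -0.66 and -0.19 on the no factor 6 d arrays, -0.94, -0.34, -0.61 and -0.33 on the PDGF-AA 12 h arrays, and -0.66, -0.52, -0.54 and -0.43 on the no factor 12 h arrays. All 12 arrays outside the PDGF-AA 6 d group were below 0, and the PDGF-AA 6 d arrays overlapped the least lowered of them. These arrays share the FGF-2 channel, so that count is not agreement of independent groups. The sample titles carry a number whose meaning the labels do not give. Replicate 4 of PDGF-AA 6 d shares that number with all 12 h arrays and with no factor 6 d replicates 2 to 4, while PDGF-AA 6 d replicates 1 to 3 and no factor 6 d replicate 1 have others. That replicate 4 had the lowest Sdhd ratio of its group, -0.40.

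The fall passed at 6 d without factor (limma adjusted p = 0.00668), at 12 h with PDGF-AA (adjusted p = 0.0127) and at 12 h without factor (adjusted p = 0.0053). At 6 d the difference of PDGF-AA minus no factor was 0.36 ± 0.16, with an interval of 0.01 to 0.70, and did not pass (adjusted p = 0.559). At 12 h that difference was -0.02 ± 0.16, with an interval of -0.36 to 0.32. The difference of 6 d minus 12 h was 0.41 ± 0.16 with PDGF-AA (adjusted p = 0.323) and 0.03 ± 0.16 without factor (adjusted p = 0.976). The interaction term was 0.38 ± 0.23 (adjusted p = 0.995), so a smaller fall at 6 d with PDGF-AA was not shown. The call at 12 h without factor held in all 28 alternatives tried. That at 12 h with PDGF-AA was lost without replicate 1 (-0.41, adjusted p = 0.162) or replicate 3 (adjusted p = 0.0562), without a dye term (adjusted p = 0.108) and with only its group's arrays (adjusted p = 0.0509). That at 6 d without factor was lost without replicate 1 (adjusted p = 0.0683) or replicate 3 (adjusted p = 0.0601), in a model holding a term for the title number (-0.43, adjusted p = 0.0626), on the 12 arrays that share 1 number alone (-0.42, adjusted p = 0.0703) and without a dye term (adjusted p = 0.0578). Sdhd also had a dye effect of 0.40 (adjusted p = 0.0114), and it was read by 1 feature.

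**Figure D3:**
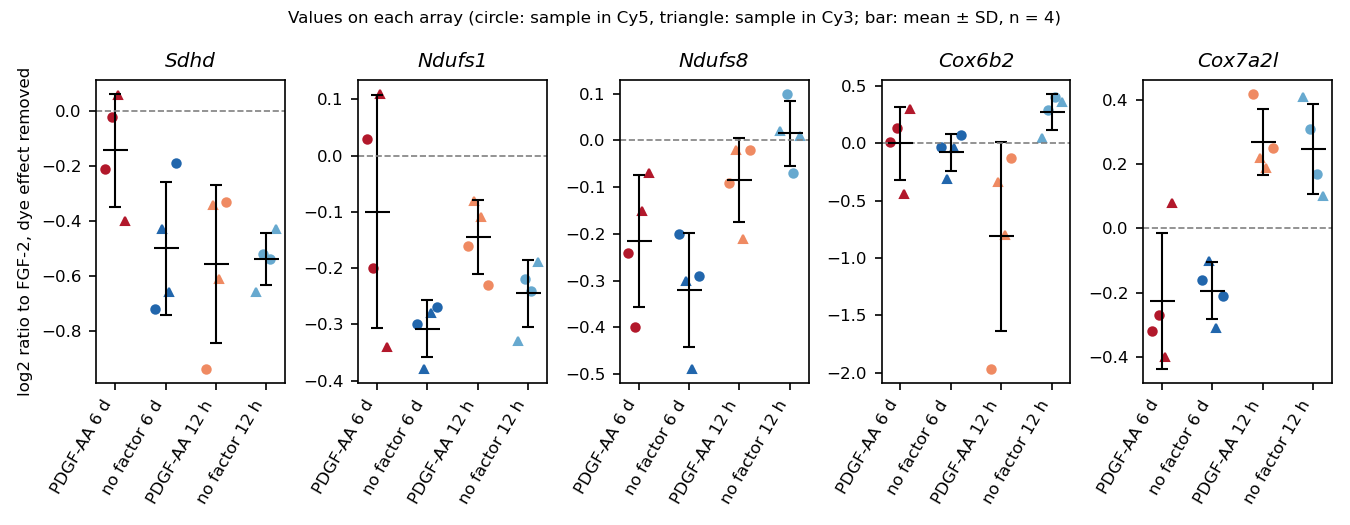
Log2 ratio to FGF-2, dye effect removed, of Sdhd, Ndufs1, Ndufs8, Cox6b2 and Cox7a2l on each array (circles with the sample in Cy5, triangles in Cy3), with mean and SD of the 4 arrays of each group; each panel has its own vertical scale. Sdhd lies below 0 outside the PDGF-AA 6 d group, Cox6b2 at 12 h with PDGF-AA spreads from -1.97 to -0.13, and the 12 h groups of Cox7a2l lie above 0.

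No other member of complex II was called against FGF-2. Sdhc, its partner in the anchor, was at 0.29, 0.15, 0.25 and 0.54 on the PDGF-AA 6 d arrays, 0.15, -0.25, 0.17 and 0.33 on the no factor 6 d arrays, -0.07, -0.24, 0.13 and -0.25 on the PDGF-AA 12 h arrays, and 0.04, 0.07, 0.23 and 0.25 on the no factor 12 h arrays. With PDGF-AA its 6 d arrays all lay above its 12 h arrays. That difference was 0.42 ± 0.14 (adjusted p = 0.231), and the ratio at 6 d with PDGF-AA was 0.31 ± 0.10 (adjusted p = 0.132), so neither passed. Sdha and Sdhb, the catalytic subunits, ranged over the 4 groups from -0.10 to 0.12 and from -0.09 to 0.06. Sdhaf2, which helps to load the flavin onto Sdha, ranged from -0.09 to 0.10.

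As a whole, complex II averaged 0.06 ± 0.04 (SD, n = 4) at 6 d with PDGF-AA, -0.06 ± 0.08 at 6 d without factor, -0.17 ± 0.06 at 12 h with PDGF-AA and -0.08 ± 0.06 at 12 h without factor. The arrays were at 0.00, 0.09, 0.08 and 0.06 in the PDGF-AA 6 d group and at -0.25, -0.15, -0.16 and -0.12 in the PDGF-AA 12 h group, so those groups did not overlap. Sdhd weighs heavily in a mean of 5: the median over the 5 was 0.10 at 6 d with PDGF-AA, 0.03 at 6 d without factor, -0.09 at 12 h with PDGF-AA and 0.04 at 12 h without factor.

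Complex III, the cytochrome bc1 complex, was represented by the matrix-facing core subunits Uqcrc1 and Uqcrc2, the hinge subunit Uqcrh and the small subunit Uqcr11. None of the 4 was called in any of the 9 comparisons (0 of 4 by limma), and 1 had an unadjusted p under 0.05 against FGF-2 in each of the no factor groups. Their mean was 0.05 ± 0.10 at 6 d with PDGF-AA, -0.13 ± 0.03 at 6 d without factor, -0.03 ± 0.10 at 12 h with PDGF-AA and 0.05 ± 0.02 at 12 h without factor. The arrays without factor were at -0.14, -0.15, -0.15 and -0.08 for 6 d and at 0.05, 0.07, 0.02 and 0.06 for 12 h, so they did not overlap. All 4 genes were below 0 at 6 d without factor.

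Uqcrh was the lowest of them at 6 d without factor, at -0.24 ± 0.09 (adjusted p = 0.0986). Its arrays there were at -0.15, 0.03, -0.51 and -0.34, a wide spread in which only replicate 2 lay above 0. Leaving out that highest array lowered the ratio to -0.34 (limma adjusted p = 0.0346), but the fit on all arrays did not pass. Uqcrc2 was the highest at 12 h without factor, at 0.20 ± 0.09 (adjusted p = 0.172), and its 6 d no factor arrays, at 0.02, 0.02, -0.07 and -0.20, lay below both its PDGF-AA 6 d arrays, at 0.12, 0.17, 0.03 and 0.13, and its 12 h no factor arrays, at 0.06, 0.31, 0.13 and 0.28. The differences were 0.17 ± 0.12 for PDGF-AA minus no factor at 6 d (adjusted p = 0.722) and -0.25 ± 0.12 for 6 d minus 12 h (adjusted p = 0.444). Uqcrc2 had a large dye effect of 0.85. Uqcrc1 ranged over groups from -0.13 to 0.11.

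Complex IV, cytochrome c oxidase, averaged -0.01 ± 0.11 at 6 d with PDGF-AA, 0.03 ± 0.11 at 6 d without factor, -0.10 ± 0.11 at 12 h with PDGF-AA and 0.05 ± 0.08 at 12 h without factor. Its catalytic core is mitochondrially encoded, so the 11 symbols are nuclear subunits around that core and Cox7a2l. Only Cox6b2 was called, in 1 group. It weighs in the mean of that group, 12 h with PDGF-AA, where it was the lowest at -0.81 and the median over the 11 was -0.03.

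Cox6b2 encodes the isoform of subunit 6b known from testis. Its ratios were 0.01, 0.13, -0.44 and 0.30 on the PDGF-AA 6 d arrays, -0.03, -0.31, -0.04 and 0.07 on the no factor 6 d arrays, -1.97, -0.34, -0.80 and -0.13 on the PDGF-AA 12 h arrays, and 0.05, 0.29, 0.40 and 0.36 on the no factor 12 h arrays. At 12 h the PDGF-AA arrays were all below 0 and below the no factor arrays, but replicate 1 lay far below its companions. The ratio at 12 h with PDGF-AA was -0.81 ± 0.21 (adjusted p = 0.0424), and without replicate 1 it was -0.39 (adjusted p = 0.303). The call was lost in 16 of 28 alternatives. The difference of PDGF-AA minus no factor at 12 h was -1.08 ± 0.29, with an interval of -1.70 to -0.47, and did not pass over all units (adjusted p = 0.517). Cox6b2 had the largest spread of the family, a pooled SD of 0.46, and a dye effect of -1.08. Its widely expressed counterpart Cox6b1 was not called.

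Cox7a2l, which promotes supercomplexes of complexes III and IV, changed sign with time under both treatments, though without passing the test. Its ratios were -0.32, -0.27, -0.40 and 0.08 on the PDGF-AA 6 d arrays, -0.16, -0.10, -0.31 and -0.21 on the no factor 6 d arrays, 0.42, 0.22, 0.19 and 0.25 on the PDGF-AA 12 h arrays, and 0.41, 0.31, 0.17 and 0.10 on the no factor 12 h arrays. All 8 arrays of 12 h were above 0, 7 of the 8 arrays of 6 d were below it, and 6 d and 12 h did not overlap under either treatment. The difference of 6 d minus 12 h was -0.50 ± 0.13 with PDGF-AA (adjusted p = 0.086) and -0.44 ± 0.13 without factor (adjusted p = 0.103). Without replicate 4 of PDGF-AA 6 d, the array at 0.08, these differences passed, at -0.61 (adjusted p = 0.0169) and -0.44 (adjusted p = 0.0488). That array is the only PDGF-AA 6 d array to share the title number of the 12 h arrays. Without it, time and title number cannot be told apart with PDGF-AA. It is not among the arrays of the no factor difference and enters that test only through the shared fit. Its 2 features were at 0.27 and 0.27 at 12 h with PDGF-AA, but at 0.01 and 0.48 at 12 h without factor. The feature at 0.48 passed when tested alone (adjusted p = 0.00587).

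Of the remaining symbols of complex IV, Cox6c was the highest at 6 d, at 0.20 ± 0.13 with PDGF-AA and 0.30 ± 0.13 without factor (adjusted p = 0.504 and 0.171). Cox6a1 was the lowest at 12 h without factor, at -0.12 ± 0.12. Cox5b was as noisy as Cox6b2, with a pooled SD of 0.45 and PDGF-AA 6 d arrays at 0.64, 0.34, -0.86 and -0.09.

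Complex V, the ATP synthase, was slightly below 0 in every group. It averaged -0.05 ± 0.07 at 6 d with PDGF-AA, -0.10 ± 0.06 at 6 d without factor, -0.06 ± 0.04 at 12 h with PDGF-AA and -0.09 ± 0.02 at 12 h without factor. All 4 arrays were below 0 in both 12 h groups and in the no factor 6 d group, and 3 of 4 were in the PDGF-AA 6 d group. Of its 14 symbols 10, 11, 9 and 12 lay below 0 in these groups. None was called in any of the 9 comparisons by limma, and 1, 2, 1 and 3 had an unadjusted p under 0.05 against FGF-2. The 4 groups overlapped, and they share the FGF-2 channel.

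**Figure D4:**
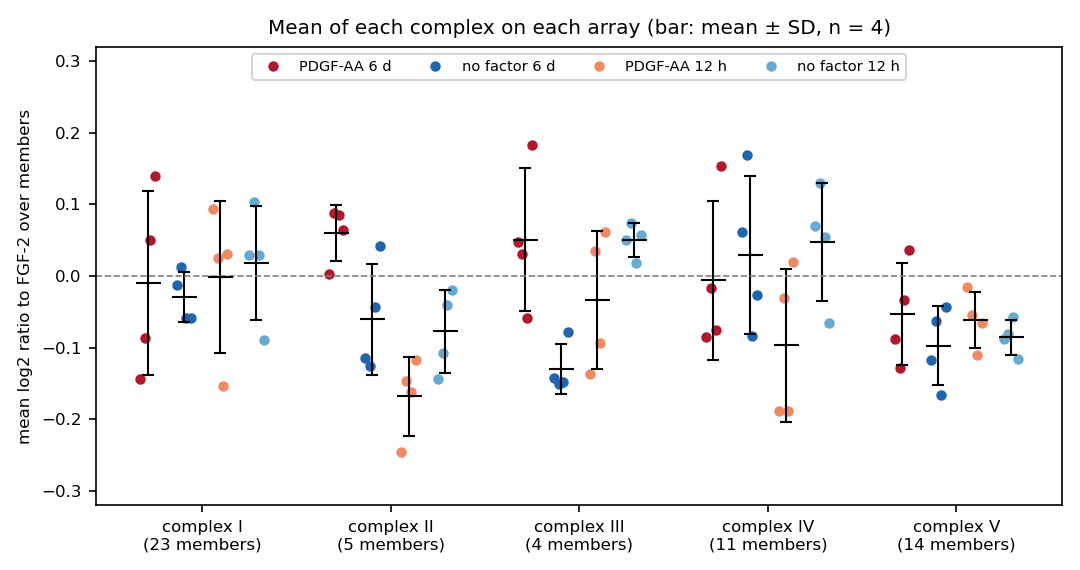
Mean log2 ratio to FGF-2 over the members of each complex on each array (points, coloured by group), with mean and SD of the 4 arrays (bars). The means lie within 0.25 of 0 on every array; complex II at 12 h with PDGF-AA and complex III at 6 d without factor are the groups farthest below it.

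By part of the enzyme, the 5 subunits of F1, which holds the catalytic sites, averaged 0.02 at 6 d with PDGF-AA, -0.07 at 6 d without factor, -0.08 at 12 h with PDGF-AA and -0.04 at 12 h without factor. The 6 subunits of Fo averaged -0.07, -0.11, -0.06 and -0.12, and the 3 of the peripheral stalk -0.15, -0.13, -0.04 and -0.09. Atp5a1, the alpha subunit of F1, was the steadiest member of all, with 4 features, a pooled SD of 0.07 and ratios from -0.06 to 0.01 over the groups. Atp5d, the delta subunit of F1, was the highest at 6 d with PDGF-AA (0.12 ± 0.11) and the lowest at 12 h with PDGF-AA (-0.25 ± 0.11, adjusted p = 0.358). Its PDGF-AA arrays of 6 d, at -0.17, 0.05, 0.02 and 0.56, barely cleared those of 12 h, at -0.23, -0.24, -0.35 and -0.17.

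The groups share the FGF-2 channel, so counts of arrays over several groups are not agreement of independent groups. Atp5o, the stalk protein that confers oligomycin sensitivity, was below 0 on all 16 arrays. It was at -0.26, -1.05, -0.13 and -0.31 on the PDGF-AA 6 d arrays, -0.48, -0.16, -0.44 and -0.19 on the no factor 6 d arrays, -0.12, -0.14, -0.51 and -0.14 on the PDGF-AA 12 h arrays, and -0.37, -0.10, -0.06 and -0.36 on the no factor 12 h arrays. The ratios were -0.44 ± 0.13 (adjusted p = 0.0805), -0.32 ± 0.13 (adjusted p = 0.135), -0.23 ± 0.13 (adjusted p = 0.504) and -0.22 ± 0.13 (adjusted p = 0.334) in that order of groups, and none passed. Replicate 2 of PDGF-AA 6 d was the lowest by far. Atp5g1, which encodes subunit c of the rotor ring, was below 0 on all 8 no factor arrays, at -0.46, -0.20, -0.29 and -0.16 for 6 d and at -0.30, -0.36, -0.23 and -0.39 for 12 h. Its ratios there were -0.28 ± 0.10 (adjusted p = 0.0982) and -0.32 ± 0.10 (adjusted p = 0.0553). Its PDGF-AA arrays, at -0.30, -0.25, 0.20 and -0.16 for 6 d and at 0.05, -0.18, -0.55 and -0.17 for 12 h, held 1 value above 0 in each group. Atp5md, a small membrane subunit, was the highest of the complex in every group but PDGF-AA 6 d, at 0.07 ± 0.11 for 6 d without factor, 0.14 ± 0.11 for 12 h with PDGF-AA and 0.21 ± 0.11 for 12 h without factor.

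Setting PDGF-AA against no factor directly, 0 of 57 members were called at 6 d by limma, where 0.00796% of all units were, and 1 (Sdhd) had an unadjusted p under 0.05 (1.75%, against 8.76% of all units). At 12 h 0 were called, where 0.0159% of all units were, and 2 (Cox6b2 and Ndufs4) had an unadjusted p under 0.05 (3.51%, against 5.42%). The median difference was 0.08 at 6 d and -0.03 at 12 h. The 95% interval lay within 0.5 of 0 for 43 members at 6 d and 47 at 12 h. The groups did not overlap for 1 member at 6 d, Uqcrc2, where 4.44% of all units did not overlap, and for 2 at 12 h, Cox6b2 and Atp5d, where 4.94% did not. By complex, the mean differences at 6 d were 0.02, 0.12, 0.18, -0.04 and 0.04 for complexes I to V, and at 12 h they were -0.02, -0.09, -0.08, -0.14 and 0.02. In complex IV at 12 h the lowest member was Cox6b2, at -1.08, and the median over members was -0.07.

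Between times, 0 of 57 members were called with PDGF-AA by limma, where 1.07% of all units were, and 6 had an unadjusted p under 0.05 (10.5%, against 11.3% of all units). Without factor 0 were called, where 1.87% of all units were, and 3 had an unadjusted p under 0.05 (5.26%, against 11.4%), namely Cox7a2l, Ndufs8 and Uqcrh, all lower at 6 d. With PDGF-AA the 6 were Atp5d, Cox6b2, Sdhc and Sdhd on the higher side and Cox7a2l and Ndufs4 on the lower. The 6 d and 12 h arrays did not overlap for 5 members with PDGF-AA (5.91% of all units) and for 6 without factor (11.1%). Cox7a2l was in both sets, with the values above. The median difference was 0.05 with PDGF-AA and -0.03 without factor, and intervals within 0.5 of 0 were reached by 41 and 40 members. For the interaction of treatment and time 0 members and 0% of all units were called, with 3 members at an unadjusted p under 0.05 (5.26%, against 3.96% of all units), and 20 members had an interval within 0.5 of 0.

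Neighbouring pathways of energy metabolism held further called genes. Of 18 measured genes of pyruvate dehydrogenase and the citric acid cycle, 1 rose and 1 fell at 6 d with PDGF-AA, 1 rose and 4 fell at 6 d without factor, 0 were called at 12 h with PDGF-AA, and 2 fell at 12 h without factor. These are 11.1%, 27.8%, 0% and 11.1% of the list, beside 3.22%, 13.7%, 3.01% and 11.7% of all units. Fh1, fumarase, which acts directly after complex II, fell by 0.64 ± 0.14 at 6 d and by 0.74 ± 0.14 at 12 h without factor (adjusted p = 0.00533 and 0.00222). Idh2, the NADP-linked isocitrate dehydrogenase of mitochondria, fell by 0.49 ± 0.11 at 6 d with PDGF-AA and by 0.71 ± 0.11 at 6 d without factor, and Pdhx, a structural part of pyruvate dehydrogenase, rose by 0.82 ± 0.13 and 0.94 ± 0.13 in those groups. Idh3a fell by 0.42 ± 0.11 at 12 h without factor, and Sucla2 and Mdh1 fell by 0.27 ± 0.08 and 0.30 ± 0.08 at 6 d without factor.

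Of 17 measured assembly factors and carriers outside the symbol rule, Oxa1l, which inserts proteins into the inner membrane, rose by 0.74 ± 0.19 at 12 h without factor, and Lrpprc, which stabilises mitochondrial messages, fell by 0.30 ± 0.10 at 6 d without factor. In the other 2 groups 0 passed. That 1 gene is 5.88% of the list in either no factor group, below the share of all units. Of 11 genes of mitochondrial biogenesis, Polg, the polymerase of mitochondrial DNA, fell by 0.42 ± 0.11 at 6 d with PDGF-AA, 0.72 ± 0.11 at 6 d without factor and 0.39 ± 0.11 at 12 h without factor, and Tfb1m fell by 0.32 ± 0.10 at 12 h without factor. The called share of that list was 9.09%, 9.09%, 0% and 18.2% in the 4 groups, beside 3.22%, 13.7%, 3.01% and 11.7% of all units. Of 14 glycolytic genes, 1 rose at 6 d with PDGF-AA, and 4 rose and 3 fell at 6 d without factor. At 12 h 2 fell with PDGF-AA, and 2 rose and 3 fell without factor. These are 7.14%, 50%, 14.3% and 35.7% of the list, beside the same shares of all units. The genes listed for glycolysis include the astrocyte marker Aldoc and the neuronal marker Eno2. The highest ratio at 12 h was the same in the glycolytic and astrocyte lists, 1.29 without factor and 0.82 with PDGF-AA. How far shifts of cell types enter these counts was not tested. With lists of 11 to 18 genes each call moves these shares by several percent, and no list was tested against the other genes. The glucose transporter gene Slc2a1 rose by 0.68 ± 0.09 and the phosphofructokinase gene Pfkl by 0.62 ± 0.10 at 6 d without factor, while Pgk1, a kinase of the lower pathway, fell by 0.73 ± 0.10. The other glycolytic genes called are given only as counts, and the highest ratio of that list at 6 d without factor was 0.89. The median ratios of these lists at 6 d without factor were -0.18 for the citric acid cycle, -0.02 for assembly and carriers, -0.10 for biogenesis and 0.20 for glycolysis, beside -0.033 for the 57 members and 0.004 for all units.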

How the data were processed

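The deposited values are log2 ratios by the reading used here, 1 per spot and array, made by the authors; the log base, background correction, normalisation and spot filters are not given in the sources used here. Per the labels' protocols, 40 micrograms of total RNA were labelled with Cy3 or Cy5 and hybridised to mouse cDNA chips, with spots quantified in QuantArray after a ScanArray scan. Mouse spots thus measured rat RNA, and signal shared between close paralogues was not separated. Of 15151 features, 8833 had 1 symbol in the chip's mouse annotation, 606 had several and 5712 had none, and columns left out numbered 0.

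Arrays were centred on their median, features of 1 symbol were averaged, and the 12559 units present on 3 or more arrays per group entered a limma (3.58.1, R 4.3.3) model of group coefficients plus dye, then empirical Bayes moderation. Tests were two-sided with Benjamini-Hochberg adjustment over all units. Comparisons with FGF-2 test the ratio against 0 and leave out the spread of the FGF-2 channel itself, assumed to be the same RNA on all arrays. The script was tested on simulated data. Depth has no counterpart on arrays, and their number, 4 per group, limits the precision.

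The symbol rule, the lists of neighbouring pathways and markers, and the alternatives were chosen with earlier results of these data known. Members named are those called in a comparison, the lowest and highest of each complex in each group, and those that are no structural subunit; members at an unadjusted p under 0.05, Cox5b, Atp5a1 and Cox6b1 were named after their values were seen. Alternatives covered the dye term, centring, scaling, quantile normalisation, the arrays used, the first number in the sample titles, the feature averaging, the variance moderation, the summary over members and leaving out each array. Figures were drawn with matplotlib 3.10.9 under Python 3.11.15.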

Additional observations from a re-analysis of the deposited data

Results flagged for a closer look

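In complex III at 6 d without factor, replicate 4 had a mean of -0.08, while the other 3 arrays lay between -0.15 and -0.14. It was the 1 array found to stand apart from its companions among 36 groups of 4 examined, and chance gives about 1 in 20.

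The mean of complex II was above 0 on every array at 6 d with PDGF-AA (mean 0.06) and below 0 on every array at 12 h with PDGF-AA (mean -0.17), a difference of 0.23. The mean of complex III was below 0 on every array at 6 d without factor (mean -0.13) and above 0 on every array at 12 h without factor (mean 0.05), a difference of -0.18. Neither difference was tested.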

How the results depend on the processing

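No paired analysis was possible because replicate numbers follow deposition order and pair no arrays across groups. The title number, which 12 arrays of all 4 groups share, was used as a term instead. The Sdhd call at 12 h without factor held in all 28 alternatives, with ratios from -0.57 to -0.48 and adjusted p from 0.00243 to 0.047. The other calls were lost in some: Sdhd at 6 d without factor had an adjusted p of 0.0578 without a dye term, 0.0626 with a title number term and 0.0703 with only the commonest title number. Sdhd at 12 h with PDGF-AA had 0.108 without a dye term and 0.0509 with only its group's arrays, Ndufs1 had 0.239 and 0.0866, and Ndufs8 had 0.082 with only its group's arrays. The number of members called was unchanged with no centring, robust moderation, units complete on all arrays, and features of several member symbols added. Without a dye term it was 0 at 12 h with PDGF-AA and 1 at 6 d without factor, as it was with only the arrays of the groups compared. After scaling of all arrays to equal spread it was 1 at 6 d with PDGF-AA, 1 at 12 h with PDGF-AA and 1 for 6 d minus 12 h with PDGF-AA. With quantile normalisation it was 1 at 6 d with PDGF-AA and 1 for 6 d minus 12 h with PDGF-AA. Both alternatives on the title number lost the Sdhd call at 6 d without factor, with no new call there. The term for the title number also gave 1 at 12 h with PDGF-AA. With only the commonest title number the number of members called was 1 at 12 h with PDGF-AA and 2 at 12 h without factor. With the 6 d arrays numbered 4 left out it was 1 for 6 d minus 12 h with PDGF-AA, and with each feature alone it was 2 at 12 h without factor and 1 for 6 d minus 12 h without factor. Leaving out 1 array at a time gave 0 to 1 at 6 d with PDGF-AA, 0 to 4 at 6 d without factor, 0 to 2 at 12 h with PDGF-AA, 1 to 2 at 12 h without factor, and 0 to 1 for 6 d minus 12 h under either treatment. Of 230 complex means recomputed 5 moved by more than 1 SD. On the 1 PDGF-AA 6 d array of the commonest title number, the means were 0.14 for complex I, 0.183 for III, 0.154 for IV and 0.037 for V, and the median over complex II at 12 h without factor was 0.022. The cause of these shifts was not tested. The number of all units called was 404 at 6 d with PDGF-AA (28 to 622 over the alternatives), 1723 at 6 d without factor (990 to 2125), 378 at 12 h with PDGF-AA (76 to 539) and 1468 at 12 h without factor (740 to 1854). For PDGF-AA minus no factor it was 1 at 6 d (0 to 229) and 2 at 12 h (0 to 25), and for 6 d minus 12 h it was 135 with PDGF-AA (11 to 259) and 235 without factor (87 to 318). How far spots lay above background could not be read from ratios.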
